A study of Rattus norvegicus with 32 samples.

Results

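Methamphetamine (METH) treated and saline treated rat nucleus accumbens were compared 1 h after injection. The comparison used 9 of the 32 arrays of the series, chosen by their titles, namely 5 METH arrays at 1 h and 4 saline arrays at 1 h. The METH rats were male Sprague-Dawley rats that had received 1 injection of METH at 20 mg/kg, and the control rats were of the same strain and sex and had received saline. All carried no stated genetic change, weighed 375 ± 25 g, and were killed 1 h later, and the sources used here give no age. Total RNA of the dissected accumbens was labelled with biotin and hybridised to Illumina RatRef-12 expression beadchips, on which a bead-bound probe reports the level of a transcript as an intensity. The labels state 5 rats per group while the groups held 5 and 4 arrays, so an array may not stand for a rat of its own. The p-values therefore cover only the spread among these 9 arrays.

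METH enters dopamine terminals, releases dopamine into the synapse and slows its removal. In the nucleus accumbens, the ventral part of the striatum, dopamine acts on the projection neurons through D1-type and D2-type receptors, and D1-type receptors raise cyclic AMP and switch on protein kinases that phosphorylate the transcription factor CREB. The genes that answer within minutes without new protein synthesis, such as Fos, Arc and the Egr genes, are called immediate early genes. Beyond them lies a broader set of early genes that encode kinases, inhibitors of signalling, metabolic enzymes, chaperones and secreted peptides, several of which also answer to adrenal steroids, heat or cyclic AMP in other tissues.

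Mean intensity per array ranged from 164.3 to 231.4, and 41.5% to 47.3% of the 22523 probes were above background (detection p under 0.05). Rank correlations between arrays ran from 0.917 to 0.977. The arrays lay on 2 slides, with METH arrays 1 and 2 and saline arrays 1 and 2 on slide 1, and METH arrays 3 to 5 and saline arrays 3 and 4 on slide 2. All values below are log2 normalized intensities, and each log2 fold change is METH minus saline within slides, from limma with Benjamini-Hochberg adjustment over all probes tested and a threshold of 0.05. Defining markers of the tissue were present: the striatal gene Ppp1r1b, which encodes the dopamine-regulated phosphatase inhibitor DARPP-32, measured 10.35 to 11.85 on METH arrays and 11.89 to 12.28 on saline arrays. The adenosine receptor gene Adora2a of D2-type projection neurons measured 10.57 to 11.49 on METH arrays and 11.66 to 11.95 on saline arrays.

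The 5 genes taken as markers of an acute METH response were all higher with METH. Fos, which encodes a subunit of the AP-1 transcription factor, measured 9.50, 9.95, 9.31, 9.0 and 8.22 on METH arrays 1 to 5, against 5.33, 5.11, 5.16 and 5.83 on saline arrays 1 to 4. Every METH array lay above every saline array, METH array 5 was the lowest of the METH arrays, and the log2 fold change was 3.87 ± 0.28 (SE, n = 5 and 4, adjusted p = 1.19e-05). The other markers did not overlap between groups either, with log2 fold changes of 2.93 for Arc (a synaptic protein), 2.79 for Egr2 (a zinc finger factor), 2.69 for Nr4a3 (an orphan nuclear receptor) and 2.67 for Dusp1 (a phosphatase of MAP kinases). All 5 passed (adjusted p 7.8e-06 to 2.52e-05) and kept the call when any array was left out. Of the 43 immediate early genes that could be tested, out of 68 written for the list, 23 rose and 0 fell. The smallest of the 23 changes was that of Mcl1, an inhibitor of cell death, at 0.94. The call of Ccn1 was lost without saline array 1 or 2 (adjusted p up to 0.0718), and Klf4 did not pass without METH array 1 or 3 or saline array 1, 2 or 4 (up to 0.0883), nor without the slide block (0.0582).

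Among the genes that passed, nearly all were higher with METH, and nearly as many rose outside the immediate early list as inside it. Of 7203 named genes tested, 44 rose (0.611%) and 2 fell (0.0278%). At an unadjusted p under 0.05 the split was near even, with 443 higher (6.15%) and 418 lower (5.8%). Of the 44, 23 stood in the immediate early list, of which 43 genes were tested, and 21 did not. That list was chosen with earlier results of these data known, so the split depends on its membership. The calls outside the list were less stable. Whichever array was left out, 21 of the 23 kept the call, against 9 of the 21. Without the slide block 22 of the 23 and 16 of the 21 passed. The 21 had a median log2 fold change of 1.02 (range 0.66 to 1.80), beside 1.77 for the 23 and -0.02 for all genes. No gene outside the list reached a log2 fold change of 2, 12 lay from 1 to 2 and 9 under 1, whereas 9 of the 23 immediate early genes reached 2. All 23 immediate early genes and 20 of the 21 others had every METH array above every saline array. Choice by a small p on the same arrays favours this, and the share over all genes was not counted. At an adjusted p from 0.05 to 0.10 the groups did not overlap for 14 of 22 higher and 12 of 14 lower genes. The median of the 21 genes was 1.18, 1.12, 1.00, 0.88 and 0.94 above the saline mean of the same slide on METH arrays 1 to 5. Over all 9987 probes, 56 were higher (0.561%) and 6 lower (0.0601%), which include 15 probes that the annotation used here leaves unnamed (11 higher, 4 lower). The smallest change among the probes that passed was 1.48-fold, and the median 95% interval of a gene was ±0.32, so that smaller changes were mostly not detectable with these arrays. Without METH array 2 the counts were 133 higher and 31 lower, and without METH array 5 they were 67 and 16. Leaving out any of the other 7 arrays gave 40 to 50 higher and 2 to 5 lower.

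**Figure D1:**
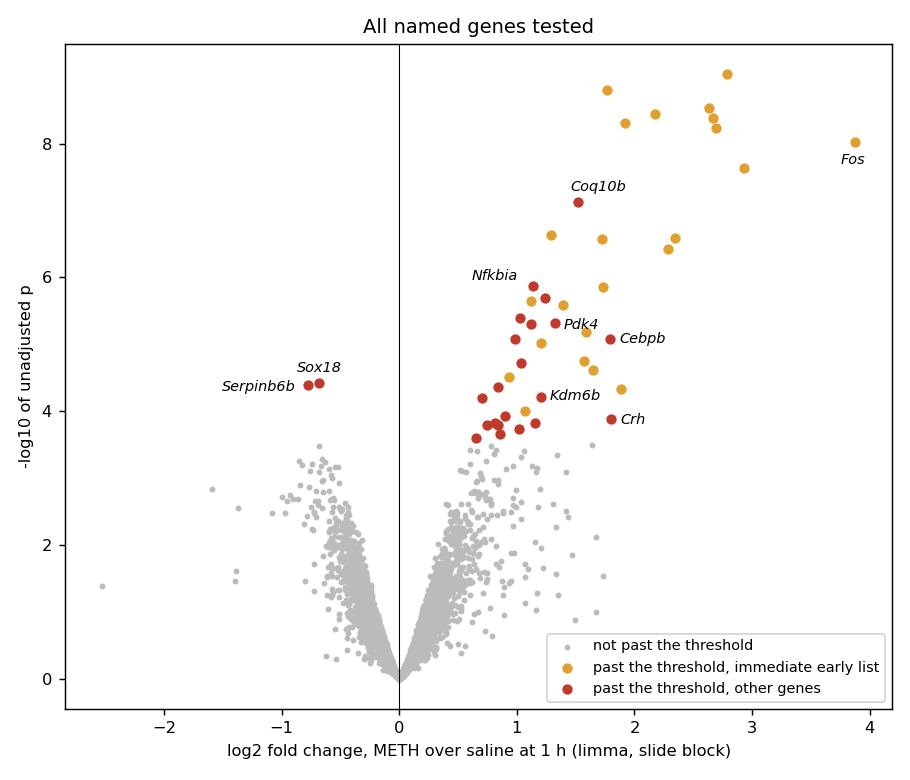
Each point is 1 of 7203 named genes, with its log2 fold change (METH over saline at 1 h) on the x axis and the -log10 of its unadjusted p on the y axis. Genes past the threshold are orange where they stand in the immediate early list (23) and red otherwise (23), and the red points lie between 0.66 and 1.80 on the right, with Sox18 and Serpinb6b on the left.

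**Figure D2:**
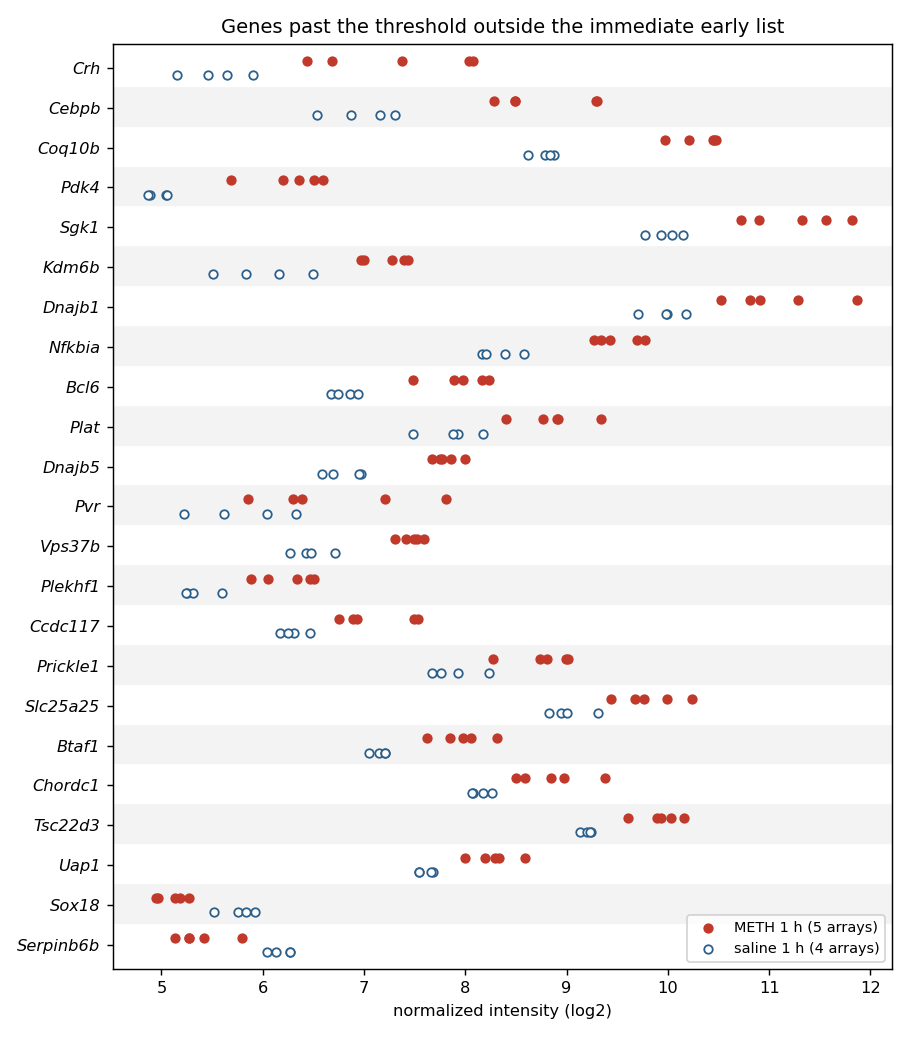
Normalized intensity (log2, x axis) of the 21 genes that rose and the 2 that fell outside the immediate early list, 1 row per gene. Filled points above are the 5 METH arrays and open points below are the 4 saline arrays. The groups overlap only for Pvr.

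The 21 rises are taken in order of known role, which was assigned after the calls, so the roles are not tested groups. Regulators of transcription and chromatin come first. Cebpb, a leucine zipper factor of metabolism and inflammation, measured 8.49, 9.30, 8.49, 9.29 and 8.29 on METH arrays 1 to 5, against 6.87, 6.54, 7.15 and 7.30 on saline arrays 1 to 4. METH arrays 2 and 4 were highest, no METH array reached down to the saline range, and the rise was 3.46-fold (log2 fold change of 1.79 ± 0.24 with an adjusted p of 0.0028). Bcl6, a zinc finger repressor best known in lymphocytes, measured 7.89, 7.48, 8.16, 7.98 and 8.23 with METH, against 6.86, 6.67, 6.94 and 6.74 with saline. METH array 2 was its lowest METH array but still above all saline arrays, and it rose 2.17-fold (log2 fold change 1.12 ± 0.14, adjusted p = 0.00184). Kdm6b encodes a demethylase that removes the repressive methyl marks from histone H3. It measured 7.28, 6.97, 7.0, 7.44 and 7.39 with METH, against 5.51, 6.50, 5.83 and 6.16 with saline, so the saline arrays were spread wider than the METH arrays. Kdm6b rose 2.31-fold (log2 fold change 1.21 ± 0.20, adjusted p = 0.0138), and did not pass without METH array 1 or saline array 3 (adjusted p up to 0.0692).

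The other transcription regulators rose less than 2-fold. Tsc22d3, the glucocorticoid-induced leucine zipper, measured 9.61, 9.89, 10.03, 9.93 and 10.16 on METH arrays 1 to 5, against 9.24, 9.13, 9.20 and 9.24 on saline arrays 1 to 4. The saline arrays lay close together and all METH arrays above them, a 1.63-fold rise (log2 fold change 0.70 ± 0.12, adjusted p = 0.0139). Btaf1, an ATPase that removes the TATA-binding protein from DNA, measured 7.98, 7.85, 7.62, 8.06 and 8.31 with METH, against 7.15, 7.20, 7.05 and 7.21 with saline, a 1.75-fold rise without overlap (log2 fold change 0.81 ± 0.15, adjusted p = 0.029). Tsc22d3 did not pass without saline array 2, 3 or 4 (adjusted p up to 0.0836), and Btaf1 did not pass without METH array 1 or 4 or without any of the 4 saline arrays (up to 0.131).

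Of signalling genes outside the immediate early list, Sgk1 and Nfkbia rose. Sgk1, a kinase of ion transport and cell survival that glucocorticoids induce, measured 10.72, 10.90, 11.56, 11.32 and 11.82 on METH arrays 1 to 5, against 9.78, 9.93, 10.04 and 10.15 on saline arrays 1 to 4. METH arrays 1 and 2, on slide 1, were lower than METH arrays 3 to 5, on slide 2, and the gene rose 2.36-fold (log2 fold change 1.24 ± 0.15, adjusted p = 0.000907). Nfkbia, which encodes the inhibitor that holds NF-kappaB in the cytoplasm, measured 9.42, 9.34, 9.69, 9.78 and 9.27 with METH, against 8.17, 8.20, 8.39 and 8.58 with saline. The groups were well apart, and it rose 2.21-fold (log2 fold change 1.14 ± 0.13, adjusted p = 0.000652). Both kept the call when any array was left out.

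Coq10b, Slc25a25, Pdk4 and Uap1 have roles in mitochondria or metabolism. Coq10b, which encodes a mitochondrial protein that binds coenzyme Q, measured 9.97, 10.46, 10.47, 10.21 and 10.44 on METH arrays 1 to 5, against 8.62, 8.88, 8.78 and 8.84 on saline arrays 1 to 4. The saline arrays were tight, all METH arrays lay over 1 log2 unit above them, and the 2.87-fold rise had the smallest adjusted p outside the immediate early list (log2 fold change 1.52 ± 0.13, adjusted p = 7.38e-05). Slc25a25, a calcium-regulated carrier of ATP and phosphate in the mitochondrial inner membrane, measured 9.99, 10.24, 9.67, 9.77 and 9.43 with METH, against 8.94, 9.31, 9.01 and 8.82 with saline. The lowest METH array and the highest saline array nearly touched, and it rose 1.79-fold (log2 fold change 0.84 ± 0.13, adjusted p = 0.0105). Slc25a25 did not pass without saline array 4 (adjusted p = 0.055) or without the slide block (0.0607).

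Pdk4, a kinase that shuts down pyruvate dehydrogenase and so spares glucose, was detected on every METH array and on 0 of 4 saline arrays. It measured 6.59, 6.36, 6.20, 5.69 and 6.51 on METH arrays 1 to 5, against 5.05, 4.89, 4.87 and 5.06 on saline arrays 1 to 4. METH array 4 was the lowest of the METH arrays, and the METH mean of 6.27 was at least 1.97-fold above saline, whose measured mean was 4.97 (adjusted p = 0.00184). That bound sets each saline array at the higher of the probe's own value and the lowest signal detected there, and it leaves out the spread between arrays. A gene undetected with saline could enter the test only if at least 4 METH arrays detected it, so the filter favours this split in detection. Uap1, which makes the sugar nucleotide UDP-N-acetylglucosamine, measured 8.19, 8.00, 8.59, 8.30 and 8.34 with METH, against 7.55, 7.68, 7.55 and 7.67 with saline. Its 1.58-fold rise (log2 fold change 0.66 ± 0.13, adjusted p = 0.0424) was the smallest among the named genes that rose, and it kept the call without METH array 2 or 5 but not without any of the other 7 arrays (adjusted p up to 0.202).

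Co-chaperones, which hand unfolded proteins to the heat shock proteins HSP70 and HSP90, rose as well. Dnajb1, an HSP40 protein induced by heat, measured 11.28, 11.87, 10.53, 10.91 and 10.81 on METH arrays 1 to 5, against 9.99, 9.70, 9.98 and 10.17 on saline arrays 1 to 4. METH arrays 1 and 2 were highest, and it rose 2.22-fold (log2 fold change 1.15 ± 0.21, adjusted p = 0.029). Dnajb5, of the same family, measured 7.86, 7.77, 8.00, 7.67 and 7.75 with METH, against 6.97, 6.95, 6.58 and 6.69 with saline, a 2.03-fold rise in which the METH arrays stayed close together (log2 fold change 1.02 ± 0.13, adjusted p = 0.00162). Chordc1, a partner of HSP90, measured 8.97, 9.37, 8.58, 8.50 and 8.84 with METH, against 8.27, 8.18, 8.08 and 8.06 with saline. METH arrays 1 and 2 were again the highest, and it rose 1.68-fold (log2 fold change 0.74 ± 0.14, adjusted p = 0.0304). Dnajb5 kept the call without any array. Dnajb1 did not pass without METH array 1 or 4 or saline array 1, 2 or 3 (adjusted p up to 0.112) or without the slide block (0.0583). Chordc1 did not pass without METH array 1 or any saline array (up to 0.127) or without the slide block (0.121).

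Of the 29 genes of the heat shock list 21 could be tested, 3 rose and 0 fell, and at an unadjusted p under 0.05 8 were higher and 0 lower, beside 6.15% and 5.8% of all genes. The list median was 0.17 beside -0.02 for all genes, 0.32 with median scaling (0.11 for all genes) and 0.41 with a cortical marker covariate. The number that passed the adjusted threshold was 1 without METH array 1 or saline array 1, 2 or 3 and without the slide block. It was 2 without METH array 4 or saline array 4. Of 29 tested Dnaj genes 2 rose, 1 of them not without METH array 1 or 4 or saline array 1, 2 or 3, and the family median was 0.07. Among the 21 tested genes of the unfolded protein response of the endoplasmic reticulum 0 passed (limma, Benjamini-Hochberg), while 5 had an unadjusted p under 0.05 in the direction of higher, with a median of 0.13. Without METH array 5 the number that passed the adjusted threshold was 3 in place of 0. The smallest p was that of Ppp1r15a, which encodes the phosphatase subunit GADD34 that restarts translation after stress (log2 fold change 1.03 ± 0.22, adjusted p = 0.0671). It measured 6.66, 7.15, 6.22, 6.21 and 5.74 on METH arrays 1 to 5, against 5.25, 5.28, 5.57 and 5.50 on saline arrays 1 to 4, without overlap.

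The remaining 7 of the 21 rises were genes with separate roles. Crh, the corticotropin-releasing hormone of the stress axis, measured 7.37, 8.03, 8.07, 6.68 and 6.44 on METH arrays 1 to 5, against 5.15, 5.65, 5.46 and 5.90 on saline arrays 1 to 4. It had the largest rise outside the immediate early list at 3.48-fold, with METH arrays 4 and 5 well below METH arrays 2 and 3 (log2 fold change 1.80 ± 0.32, adjusted p = 0.0268). Plat, tissue plasminogen activator, measured 9.34, 8.91, 8.76, 8.40 and 8.90 with METH, against 8.17, 7.92, 7.88 and 7.48 with saline. Its lowest METH array lay just above its highest saline array, and it rose 2.05-fold (log2 fold change 1.04 ± 0.15, adjusted p = 0.00559). Crh did not pass without METH array 1 or saline array 1, 2 or 3 (adjusted p up to 0.105), whereas Plat kept the call without any array.

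Vps37b, a subunit of the ESCRT-I complex that sorts membrane proteins for degradation, measured 7.53, 7.49, 7.59, 7.31 and 7.41 on METH arrays 1 to 5, against 6.27, 6.42, 6.48 and 6.72 on saline arrays 1 to 4. The METH arrays lay within a narrow band above all saline arrays, and it rose 1.98-fold (log2 fold change 0.99 ± 0.13, adjusted p = 0.0028). Plekhf1, an endosomal protein that binds phosphoinositide lipids, measured 6.06, 6.51, 6.33, 6.47 and 5.89 with METH, against 5.25, 5.31, 5.60 and 5.24 with saline. It was above background on 2 of the 4 saline arrays, and it rose 1.86-fold (log2 fold change 0.90 ± 0.16, adjusted p = 0.0248). Vps37b kept the call without any array, and Plekhf1 did not pass without METH array 3 or 4 or saline array 1, 2 or 4 (adjusted p up to 0.121).

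Prickle1, a protein of planar cell polarity, measured 8.74, 8.27, 8.99, 8.81 and 9.01 on METH arrays 1 to 5, against 7.76, 7.93, 7.67 and 8.23 on saline arrays 1 to 4. METH array 2 all but met saline array 4, and it rose 1.79-fold (log2 fold change 0.84 ± 0.16, adjusted p = 0.0308). Pvr, a nectin-like adhesion molecule first known as the poliovirus receptor in humans, measured 7.81, 7.21, 6.39, 6.30 and 5.86 with METH, against 6.33, 6.04, 5.62 and 5.22 with saline. Pvr was the 1 gene of the 21 whose groups overlapped over all arrays, while within each slide every METH array lay above every saline array (log2 fold change 1.02 ± 0.19, adjusted p = 0.0335). Ccdc117 measured 7.49, 7.54, 6.75, 6.93 and 6.89 with METH, against 6.17, 6.30, 6.24 and 6.46 with saline, a 1.81-fold rise in which METH arrays 1 and 2 stood highest (log2 fold change 0.86 ± 0.16, adjusted p = 0.0382). Prickle1 kept the call without METH array 2 or 5 but not without any of the other 7 arrays (adjusted p up to 0.127). Pvr did not pass without METH array 1, 3 or 4 or saline array 1, 2 or 4 (up to 0.134), nor Ccdc117 without METH array 1, 2 or 4 or saline array 1, 2 or 3 (up to 0.148). Without the slide block the adjusted p was 0.369 for Pvr and 0.0899 for Ccdc117.

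Both named genes that fell were dim. Sox18, a transcription factor of blood vessel endothelium, measured 4.97, 4.95, 5.14, 5.19 and 5.27 on METH arrays 1 to 5, against 5.52, 5.76, 5.84 and 5.93 on saline arrays 1 to 4, and was above background on 1 of 5 METH arrays and 4 of 4 saline arrays. It fell by 0.68 on the log2 scale (SE 0.11, adjusted p = 0.00957), by the same amount on either slide. Serpinb6b, a serine protease inhibitor, measured 5.79, 5.42, 5.13, 5.27 and 5.27 with METH, against 6.27, 6.27, 6.04 and 6.13 with saline, and was above background on 3 of 5 METH arrays. It fell by 0.77 on the log2 scale (SE 0.12, adjusted p = 0.0102). The groups did not overlap for either gene, and neither passed without saline array 4 (adjusted p = 0.054 and 0.0607). Neither passed on slide 1 alone or on slide 2 alone. Both entered the test only through detection on the saline arrays, where they were higher, and a filter for detection on every array leaves both untested. Of 15 endothelial and pericyte genes tested Sox18 alone passed, with a list median of -0.23, and of 9 tested Serpin genes Serpinb6b alone passed, with a family median of -0.26 (-0.17 without METH array 5 and -0.14 without saline array 3). In bulk tissue fewer cells of a type and less RNA per cell cannot be told apart.

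Promoter sequences of 5 genes that rose are shown because they hold a letter match to a motif of an inducible factor. They run from 250 bases before to 50 bases after the annotated start, from RefSeq on the GRCr8 build, and 17 of the 21 genes outside the immediate early list and 17 of the 23 in it had an entry. The cyclic AMP response element, TGACGTCA, was searched on both strands together with its shorter form TGACG, which lies within it. The full element stood in the promoters of Plekhf1 (chr1:100046768-100047067, minus strand), Slc25a25 (chr3:36116532-36116831, minus strand) and Vps37b (chr12:38220723-38221022, plus strand), where it is in capitals.
Plekhf1: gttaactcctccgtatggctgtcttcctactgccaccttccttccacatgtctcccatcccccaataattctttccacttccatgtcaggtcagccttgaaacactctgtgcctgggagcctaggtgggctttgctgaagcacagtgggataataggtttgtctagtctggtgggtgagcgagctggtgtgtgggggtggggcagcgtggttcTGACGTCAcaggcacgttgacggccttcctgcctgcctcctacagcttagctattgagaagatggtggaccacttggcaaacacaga
Slc25a25: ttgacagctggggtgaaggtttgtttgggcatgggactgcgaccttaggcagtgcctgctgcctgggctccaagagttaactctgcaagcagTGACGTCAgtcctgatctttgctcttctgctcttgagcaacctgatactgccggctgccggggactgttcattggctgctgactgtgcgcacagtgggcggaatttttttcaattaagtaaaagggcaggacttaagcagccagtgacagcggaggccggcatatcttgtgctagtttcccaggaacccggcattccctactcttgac
Vps37b: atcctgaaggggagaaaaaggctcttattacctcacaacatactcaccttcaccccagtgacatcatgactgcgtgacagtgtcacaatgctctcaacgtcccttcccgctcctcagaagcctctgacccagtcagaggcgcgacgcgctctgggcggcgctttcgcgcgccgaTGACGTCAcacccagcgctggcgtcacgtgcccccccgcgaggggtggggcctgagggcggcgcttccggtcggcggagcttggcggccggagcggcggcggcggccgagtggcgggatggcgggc
In the promoter of Coq10b (chr9:64047918-64048217, plus strand) the capitals mark 2 copies of the shorter form, read on the opposite strand.
Coq10b: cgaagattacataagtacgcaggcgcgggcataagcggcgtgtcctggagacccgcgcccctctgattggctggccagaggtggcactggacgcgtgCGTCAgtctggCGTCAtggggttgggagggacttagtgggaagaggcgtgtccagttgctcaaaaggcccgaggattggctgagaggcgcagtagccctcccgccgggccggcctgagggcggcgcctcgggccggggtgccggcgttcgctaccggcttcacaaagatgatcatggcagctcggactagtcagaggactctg
In that of Chordc1 (chr8:23650571-23650870, plus strand) the capitals mark 3 overlapping matches to a heat shock element (GAA, any 2 bases, TTC, any 2 bases, GAA), which lie after the annotated start.
Chordc1: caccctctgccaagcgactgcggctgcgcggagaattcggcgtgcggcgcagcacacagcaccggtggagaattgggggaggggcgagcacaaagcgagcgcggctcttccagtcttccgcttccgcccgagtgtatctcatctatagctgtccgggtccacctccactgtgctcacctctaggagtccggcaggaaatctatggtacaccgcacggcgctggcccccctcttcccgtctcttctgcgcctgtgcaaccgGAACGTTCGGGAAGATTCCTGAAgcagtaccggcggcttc

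The full element was found in 3 of the 17 promoters outside the immediate early list (17.6%) and in 1 of 17 in it (5.88%, Dusp1), beside 3.44% of the 6013 promoters of all genes tested and 1.91% of 27457 promoters. The shorter form stood in 10 of 17 (58.8%), among them Cebpb, Bcl6, Dnajb1 and Dnajb5, and in 11 of 17 immediate early promoters (64.7%), beside 33.3% of all genes tested. The heat shock element was found in Chordc1 alone, beside 0.615% of all genes tested. The CArG box, the site of serum response factor, was found in 0 of the 17 and in 2 immediate early promoters, those of Egr1 and Egr2. Matches to TGANTCA (AP-1), GCGTGGGCG (Egr factors) and a palindrome of the glucocorticoid receptor (G, any base, ACA, any 3 bases, TGT, any base, C) were found in 0 of either set, beside 4.76%, 0.948% and 0.266% of all genes tested. A match is a description of these letters, and the absence of a match says only that the letters are not in this window.

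Among the gene lists beyond the immediate early genes, the glucocorticoid-responsive list held the most rises. Of its 30 genes 19 could be tested, 8 rose and 0 fell, with a median log2 fold change of 0.70 beside -0.02 and 0.611% for all genes. Besides Dusp1 and the clock gene Per1, which are also immediate early genes, these were Nfkbia, Sgk1, Pdk4, Bcl6, Cebpb and Tsc22d3. The list median was 0.45, 0.43, 0.80, 0.71 and 0.78 above the saline mean of the same slide on METH arrays 1 to 5, lower on slide 1 than on slide 2, while saline arrays lay between -0.06 and 0.06. The median over the fit was 0.86 with median scaling (0.11 for all genes), 0.59 with a replicate block and 0.45 with the cortical marker covariate. The count ran from 7 to 9 when an array was left out. The list and its members were chosen with earlier results of these data known, so its count is not independent evidence of a direction.

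Other signalling lists held 1 to 3 rises each, mostly of immediate early genes, where 0.611% of all named genes tested rose and their median was -0.02. The lists share members, so that Sik1 and Nfil3, for example, count in more than 1 of them. In the MAP kinase feedback list 2 of 13 tested genes rose, the phosphatase genes Dusp1 and Dusp6, with a list median of 0.37. In the CREB and cyclic AMP list 2 of 22 rose, the salt-inducible kinase Sik1 and the repressor Crem, with a median of 0.10. Crem, whose short form ICER blocks the cyclic AMP response element, measured 8.84, 9.24, 8.58, 8.30 and 7.83 on METH arrays 1 to 5, against 7.03, 6.90, 7.04 and 6.55 on saline arrays 1 to 4, and it rose (log2 fold change 1.73, adjusted p = 0.000652). Its other tested probe also passed and was above background on 5 of 5 METH arrays and 0 of 4 saline arrays, a split that the detection filter favours. Of 12 clock genes Per1 and Nfil3 rose (median 0.31), of 8 NF-kappaB genes Nfkbia and Ptgs2 (0.14), and of 21 stress and growth kinases Sik1 and Sgk1 (0.05). Gadd45g and Mcl1 rose among 22 growth arrest and apoptosis genes (median 0.12), where 4 passed without METH array 5. Among 27 secreted factors and peptides Ccn1 and Crh rose (0.28), where 7 passed without METH array 2 and 0 without saline array 1 or 2. Nfil3, Cebpb and Tsc22d3 rose and Sox18 fell among 30 other inducible transcription factors (0.14), where 6 passed without METH array 2 and 2 without saline array 4. Of 24 small GTPases and regulators Gem rose (0.18), and 2 passed without METH array 2 or 5 or saline array 1. Several of these medians moved by over 1.5 times when 1 array was left out, of which examples follow. Without METH array 5 they were 0.23 for MAP kinase feedback, 0.047 for CREB and 0.20 for growth arrest. Without METH array 2 they were 0.15 for secreted factors and 0.17 for kinases, and without METH array 4 that of NF-kappaB was 0.089. Without saline array 3 they were 0.018 for CREB, 0.059 for the other transcription factors, 0.025 for kinases and 0.25 for growth arrest, and without saline array 4 that of small GTPases was 0.27.

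Several lists gave no call with all arrays. Over all named genes tested 0.611% rose and 0.0278% fell, so a list of this size with no call is not unusual. At an unadjusted p under 0.05 the shares over all genes were 6.15% higher and 5.8% lower. Of 19 tested genes of histone acetylation 0 passed and 0 had an unadjusted p under 0.05, with a median of -0.01. Of 22 genes of mRNA decay 0 passed, and the 2 with the smallest p pointed apart: the cold-inducible RNA-binding gene Rbm3 (log2 fold change -0.74 ± 0.16, adjusted p = 0.0786) and Zfp36, whose protein destabilises cytokine mRNAs (0.71 ± 0.16, adjusted p = 0.1). The count of this list was 1 without METH array 5 or saline array 3. Of 25 antioxidant and metallothionein genes 0 passed (2 higher and 3 lower at an unadjusted p under 0.05), led by Gclc, the rate-limiting enzyme of glutathione synthesis, at 0.80 ± 0.19 (adjusted p = 0.1). Of 19 genes of cholesterol synthesis 0 passed (5 higher and 1 lower unadjusted), led by Idi1 at 0.48 ± 0.14 (adjusted p = 0.196). Of 22 presynaptic genes 0 passed (4 higher and 1 lower unadjusted), led by the release site gene Rims1 at 0.78 ± 0.20 (adjusted p = 0.15), and 2 passed without METH array 2. The medians of the antioxidant, cholesterol and presynaptic lists were -0.09, 0.14 and 0.20. When an array was left out they ran from -0.15 to 0.03, from 0.09 to 0.21 and from 0.12 to 0.22. Of 21 genes of glycolysis Pdk4 alone rose, and of 19 glutamate receptor and postsynaptic genes Arc alone rose, with medians of 0.05 and 0.20, and 2 postsynaptic genes passed without METH array 2. Leaving out METH array 5 gave a postsynaptic median of 0.13, and leaving out saline array 3 gave 0.12. For these lists a p that misses the threshold does not show that the genes were unchanged.

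**Figure D3:**
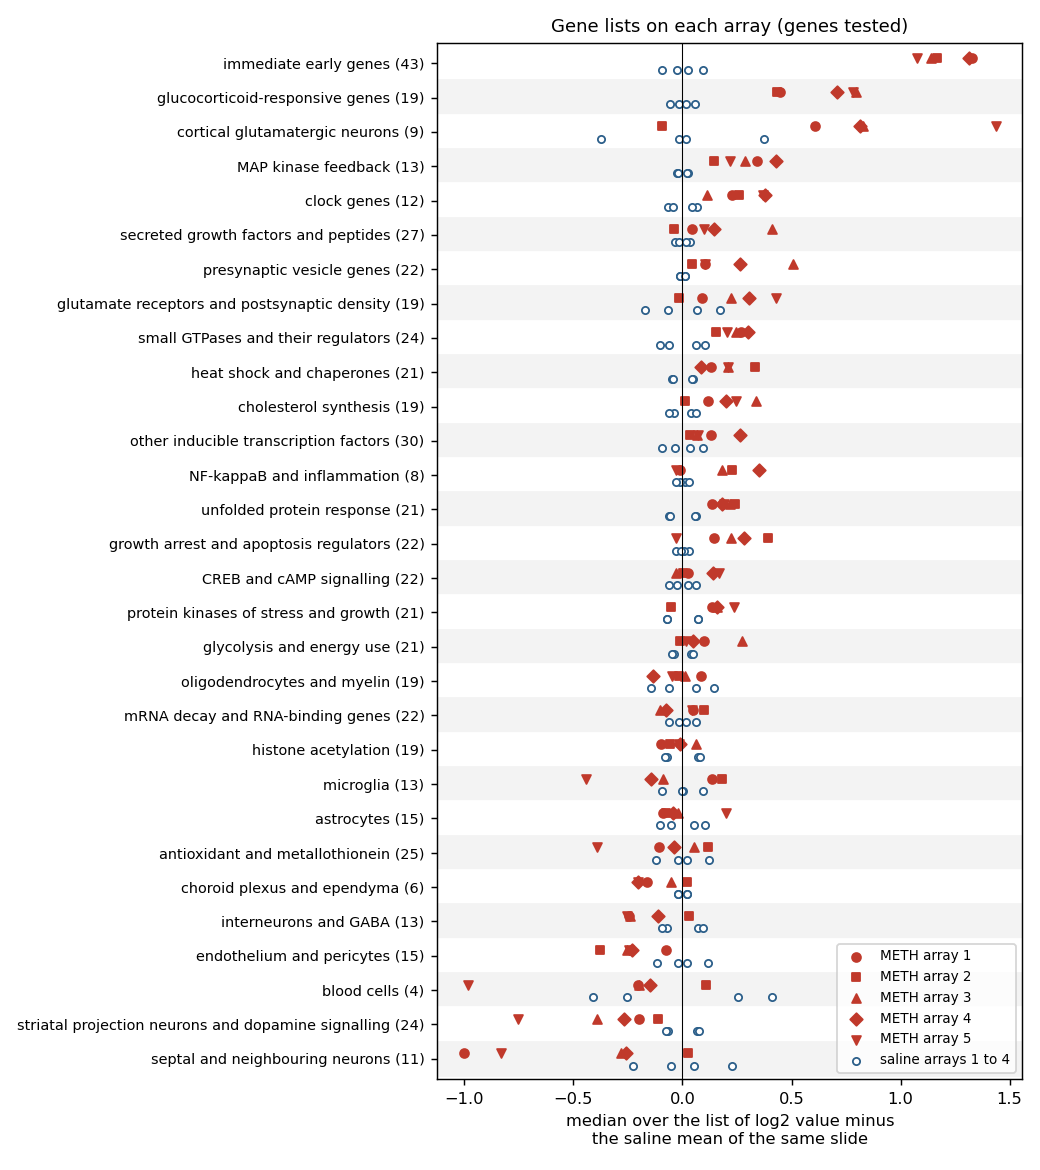
For each of 30 gene lists (rows, number of tested genes in brackets) the median over the list of log2 value minus the saline mean of the same slide is shown on the x axis. Filled symbols are METH arrays 1 to 5 and open circles below them the 4 saline arrays. The immediate early list lies between 1.08 and 1.33 on all METH arrays, whereas the cortical list runs from -0.09 on METH array 2 to 1.44 on METH array 5.

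Gene families defined by their symbols moved little. Of 25 families 5 held a call, where 0.611% of all named genes tested rose and 0.0278% fell. In the Klf family of zinc finger factors 2 of 9 tested genes rose, Klf10 and Klf4, and the family median was 0.44, the highest of the 25. Klf10, a factor induced by transforming growth factor beta, measured 7.55, 6.50, 7.46, 7.76 and 8.21 on METH arrays 1 to 5, against 5.84, 5.53, 5.85 and 6.23 on saline arrays 1 to 4. METH array 2 was its lowest METH array, and it rose 2.98-fold (log2 fold change 1.57 ± 0.23, adjusted p = 0.0054). The count of 2 was 1 without METH array 1 or 3 or saline array 1, 2 or 4, and 3 without METH array 5. Of 11 Dusp phosphatases 2 rose (median 0.21). Of 148 solute carriers Slc25a25 alone rose (median -0.03), with 3 past the threshold without METH array 2 and 0 without saline array 4. The Dnaj and Serpin families are given with their members. Among 44 potassium channel genes, 94 Zfp and Znf genes, 39 Rab genes, 31 Usp genes and 11 Rgs genes 0 passed, and the medians of the 20 families with no call lay between -0.18 and 0.14. When an array was left out, at most 1 gene passed in any of these 20 families, except for 2 potassium channel genes without METH array 2.

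The ribosomal protein family (67 genes, median -0.18), the Nduf subunits of respiratory complex I (35 genes, -0.10) and the Psm proteasome subunits (38 genes, -0.08) had 0 calls, and with median scaling, which moved the median of all genes to 0.11, those of Nduf and Psm were 0.052 and 0.09. Without METH array 5 the 3 medians were -0.048, 0.011 and 0.032, and without saline array 3 they were -0.081, -0.03 and 0.017. On METH array 5 the family medians were -0.76, -0.72 and -0.39 relative to the saline mean of the slide. On METH arrays 1 to 4 they lay between -0.13 and 0.12. METH array 5 also had the highest share of probes above background (47.3%).

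Markers of neighbouring cell types varied between METH arrays. Of 19 cortical glutamatergic genes written, 9 could be tested, 0 passed and 5 had an unadjusted p under 0.05, all higher. Their median was 0.61, -0.09, 0.83, 0.81 and 1.44 on METH arrays 1 to 5, against -0.02, 0.02, -0.37 and 0.37 on saline arrays 1 to 4. The median over the fit was 0.59, and 0.38 without saline array 3. Slc17a7, the vesicular glutamate transporter that defines cortical excitatory neurons, measured 7.36, 4.71, 8.31, 8.01 and 7.72 with METH, against 4.90, 5.48, 4.71 and 6.58 with saline, and was above background on 4 of 5 METH arrays and 2 of 4 saline arrays. METH array 2 thus lay with the saline arrays (log2 fold change 1.68 ± 0.52, adjusted p = 0.221). The markers Tbr1 and Nrn1 were not tested. Of 24 striatal projection neuron and dopamine genes 0 passed, and at an unadjusted p under 0.05 11 were lower and 1 higher, beside 5.8% and 6.15% of all genes. Their median was -0.20, -0.11, -0.39, -0.27 and -0.75 on METH arrays 1 to 5, farthest from 0 on METH array 5, against -0.08 to 0.08 on saline arrays. The count of striatal genes that passed was 3 without METH array 2 and 1 without METH array 4 or 5. Of 11 septal genes 0 passed (1 higher and 5 lower unadjusted), with a median of -0.57, and leaving out METH array 2 gave 2 calls, saline array 4 gave 1. There was no call among 15 astrocyte, 19 oligodendrocyte, 13 microglial, 6 choroid plexus, 4 blood and 13 interneuron genes, except 1 choroid plexus gene without METH array 5 and 1 interneuron gene without METH array 2. Over all named genes tested 0.611% rose and 0.0278% fell. The part of tissue composition in the results was not tested. When each array's cortical median was entered in the fit (an alternative added once the data had been examined) 35 of the 46 named genes passed. That median was higher on METH arrays 1, 3, 4 and 5 than on any saline array, so it overlaps with treatment. A call kept or lost with it therefore cannot tell which genes depend on composition.

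With that term in the fit 22 of 23 immediate early genes and 13 of 21 other rises passed. The 8 others were Kdm6b, Tsc22d3, Btaf1, Uap1, Chordc1, Plat, Prickle1 and Ccdc117 (adjusted p 0.0717 to 0.375), and Klf10 was the immediate early gene. Their log2 fold changes with the covariate were 0.97 for Kdm6b, 0.65 for Tsc22d3, 0.60 for Btaf1, 0.53 for Uap1, 0.86 for Chordc1, 0.98 for Plat, 0.50 for Prickle1, 1.00 for Ccdc117 and 1.00 for Klf10, so those of Chordc1 and Ccdc117 were larger than without it. Sox18 and Serpinb6b did not pass either (adjusted p = 0.0702 and 0.0658), with log2 fold changes of -0.74 and -0.84 that lay farther from 0 than without the covariate. The covariate moved Crh to 2.30, Cebpb to 2.28 and Plekhf1 to 1.26, and Sgk1 to 1.02.

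METH array 2 stood apart for a set of genes of which most are not immediate early genes. Without it 124 named genes passed, 45 of them among the 46 of all arrays, and 79 were added, of which 61 were higher and 18 lower. These genes were singled out by leaving the array out, so the following is a description. The median of the 61 was 1.08, -0.05, 1.14, 1.04 and 1.31 on METH arrays 1 to 5, relative to the saline mean of the slide. The median of the 18 was -1.02, -0.05, -0.98, -0.81 and -1.15. METH array 2 thus lay at the saline level for both sets, while it was the highest METH array for 13 of the 23 immediate early genes that rose and for 6 of the 21 others. Of the cortical list 2 genes were added, Slc17a7 and Neurod2.

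Among the genes added, and chosen after their values were seen, were neuropeptide and trophic factor genes. The cortistatin gene Cort measured 6.75, 5.26, 7.36, 7.26 and 6.94 on METH arrays 1 to 5, against 5.29, 5.53, 5.38 and 5.60 on saline arrays 1 to 4. METH array 2 was below every saline array and the other 4 METH arrays above them all (log2 fold change 1.20 ± 0.29, adjusted p = 0.123, and 1.57 ± 0.16, adjusted p = 0.000603, without METH array 2). Bdnf, a neurotrophin induced by activity, measured 7.18, 5.46, 7.76, 7.27 and 8.18 with METH, against 5.58, 5.64, 5.63 and 6.23 with saline. Its pattern was the same (log2 fold change 1.31 ± 0.34, adjusted p = 0.15, and 1.72 ± 0.22, adjusted p = 0.0023, without METH array 2). Vip, a peptide of interneurons, measured 7.40, 5.05, 7.72, 8.12 and 8.34 with METH, against 5.64, 5.80, 4.82 and 6.75 with saline (log2 fold change 1.47 ± 0.51, adjusted p = 0.275, and 2.06 ± 0.35, adjusted p = 0.0146, without METH array 2). Vip had the highest log2 fold change of the 13 tested interneuron genes, whose median was -0.21 (-0.05 without saline array 1). At an unadjusted p under 0.05, 1 of these genes was higher and 1 lower. Agt, which encodes angiotensinogen and is made by astrocytes, had a log2 fold change of -1.37 (adjusted p = 0.16) with all arrays and of -1.84 ± 0.20 (adjusted p = 0.000911) without METH array 2. The astrocyte list, which does not hold Agt, had a median of -0.09 over 15 tested genes.

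A further 36 named genes had an adjusted p from 0.05 to 0.10, of which 22 were higher, with a median log2 fold change of 0.82, and 14 lower, with a median of -0.66. At an adjusted p of 0.10 the totals were 66 higher (0.916%) and 16 lower (0.222%) of the named genes, and 80 (0.801%) and 23 (0.23%) of all probes. Among the 22, METH array 2 was the lowest METH array for 10 and METH array 5 the highest for 11.

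The 12 of these with the smallest adjusted p lay just outside the threshold. Nptx2, a neuronal pentraxin that gathers AMPA receptors at synapses, measured 7.75, 6.45, 8.83, 8.37 and 8.27 on METH arrays 1 to 5, against 5.87, 6.05, 5.72 and 7.14 on saline arrays 1 to 4. METH array 2 lay below saline array 4, so the groups overlapped (log2 fold change 1.64 ± 0.33, adjusted p = 0.0509). The somatostatin receptor gene Sstr1 measured 8.09, 7.66, 8.12, 8.46 and 9.38 with METH, against 6.67, 6.84, 6.54 and 7.74 with saline, and again METH array 2 lay just below saline array 4 (1.34 ± 0.28, adjusted p = 0.0633). Rasd1, a small GTPase induced by dexamethasone, measured 8.17, 8.27, 8.71, 8.59 and 8.63 with METH, against 7.97, 7.49, 7.41 and 7.82 with saline, without overlap (0.78 ± 0.16, adjusted p = 0.0512). Siah2, an E3 ubiquitin ligase, measured 8.10, 8.24, 7.81, 7.87 and 7.25 with METH, against 7.0, 7.08, 7.10 and 7.10 with saline, also without overlap (0.81 ± 0.17, adjusted p = 0.0618).

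Pdp1, the phosphatase that turns pyruvate dehydrogenase back on and so opposes Pdk4, had a log2 fold change of 0.66 ± 0.14 (adjusted p = 0.0563). It measured 9.24, 9.03, 9.19, 8.80 and 9.16 on METH arrays 1 to 5, against 8.72, 8.26, 8.34 and 8.42 on saline arrays 1 to 4, and the groups did not overlap. The others on the higher side were P4ha1, a collagen hydroxylase, at 0.60, Apold1, an early gene of endothelium, at 0.83, Ier5 at 1.06, Ppp1r15a at 1.03 and the clock repressor Bhlhe40 at 0.74. On the lower side stood Upb1, an enzyme of pyrimidine breakdown, and Cacng4, an auxiliary subunit of AMPA receptors. Both were above background on all 4 saline arrays and on none of the 5 METH arrays. A gene undetected with METH could enter the test only if all 4 saline arrays detected it, so the filter sets this split. Upb1 measured 4.92, 4.81, 5.00, 5.23 and 4.73 with METH, against 5.69, 5.45, 5.87 and 5.44 with saline, which puts saline at least 1.26-fold above METH (adjusted p = 0.0512). Cacng4 measured 5.10, 5.29, 4.97, 5.23 and 4.86 with METH, against 5.62, 6.13, 5.79 and 5.53 with saline, at least 1.41-fold higher in saline (adjusted p = 0.0704).

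Lower values also lay among striatal genes of this range. Gng7, the G protein gamma subunit that couples D1-type and adenosine receptors to adenylyl cyclase in striatum, measured 10.03, 9.85, 9.47, 9.97 and 9.02 on METH arrays 1 to 5, against 10.57, 10.44, 10.61 and 10.46 on saline arrays 1 to 4. All METH arrays lay below all saline arrays, METH array 5 lowest (log2 fold change -0.83 ± 0.18, adjusted p = 0.0786). Adora2a had the same order of groups (-0.76 ± 0.17, adjusted p = 0.0837), and METH arrays 3 and 5 were its lowest. Hes5, a target of Notch signalling in glial progenitors chosen after its values were seen, measured 5.54, 5.18, 5.10, 5.57 and 5.28 with METH, against 5.78, 5.99, 6.13 and 6.75 with saline (-0.85 ± 0.18, adjusted p = 0.0732).

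All 46 named genes that passed had the same sign on both slides, taken separately. They were chosen by the fit over both slides, which favours equal signs, so this is a description and not a check. In slide 1 alone, with 2 METH and 2 saline arrays, 31 of the 46 passed, and in slide 2 alone, with 3 and 2, 11 passed. Immediate early genes were larger on slide 1 for 18 of 23, the other rises for 12 of 21, and the 22 higher genes just outside the threshold for 8. Dnajb1 changed by 1.73 on slide 1 and 0.67 on slide 2, Ccdc117 by 1.28 and 0.50, and Crh by 2.30 and 1.39. In the opposite order Sgk1 changed by 0.96 and 1.47, and Nptx2 had values of 1.14 and 2.06. The difference between slides was not tested.

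**Figure D4:**
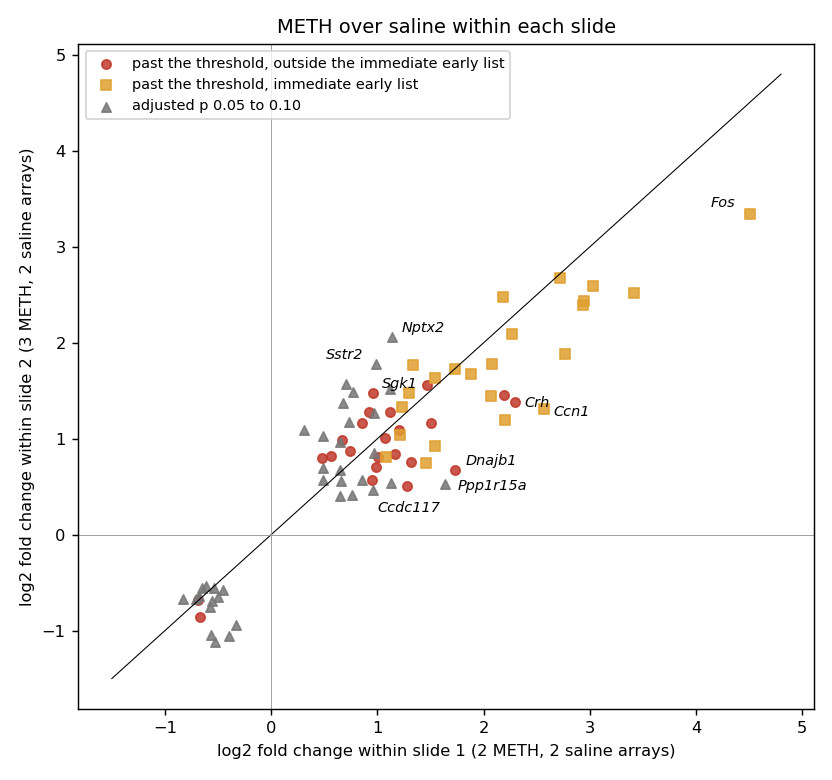
Log2 fold change (METH over saline) within slide 1 on the x axis and within slide 2 on the y axis, for the 46 named genes past the threshold and the 36 with an adjusted p from 0.05 to 0.10. The diagonal marks equal values. Every point lies in the quadrants of equal sign, which the choice of genes by the fit over both slides favours. Most immediate early genes (squares) lie below the diagonal.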

How the data were processed

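Accumbens RNA of 9 samples was measured on Illumina RatRef-12 beadchips with 22523 probes, and the arrays were grouped by their titles into 5 METH and 4 saline. The deposited values are summarised probe intensities, exported with BeadStudio per the submitters' processing notes (its version is not given in the sources used here). The values themselves show background subtraction and no scaling between arrays. The authors deposited a detection p-value with each intensity. The deposited intensities were turned into log2 values with limma's neqc (normexp background, offset of 16, quantile normalization over the 9 arrays). Probes detected at p under 0.05 on at least 4 arrays entered lmFit and eBayes with an intensity trend and the slide as a block (R 4.3.3, limma 3.58.1), with Benjamini-Hochberg adjustment. The fit was run on simulated data with 200 changed probes. Its noise was independent between probes and held no slide effect. That run thus does not cover shifts shared by many probes of an array. A gene stands for its brightest probe, 13793 probes have 1 name, 8730 have none and 0 have several. Precision is limited by the number of arrays, and intensities do not compare between probes.

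The members and gene lists were chosen with earlier results of these data known. Named genes were the 5 markers, the 20 largest rises and 15 largest falls outside the immediate early list, up to 4 genes that passed in each list or else 3 with the smallest p, the extremes of each symbol family, the 12 genes just outside the threshold, and those that passed under 2-fold. The alternatives were no slide block, a replicate block, no background correction, median scaling, other detection filters, no trend, array weights, each slide alone, leaving out each array and, chosen after seeing the data, a cortical marker covariate. The arrays of later times were not used here.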

Additional observations from a re-analysis of the deposited data

Results flagged for a closer look

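Of 330 sets of values tested (a named gene within the METH or the saline arrays), 21 had a highest or lowest array set apart from the others by Dixon's test, which is 6.36%, while chance gives about 5%. METH array 2 held 7 of them, saline array 4 held 5 and METH array 5 held 4. METH array 2 stood low at 4.71 for Slc17a7, 5.05 for Vip, 6.90 for Sstr2 and 5.25 for Itgam, and apart at 6.58 for Otx2, 7.45 for Rgs12 and 9.01 for Tmem178a. Saline array 4 stood high at 6.23 for Bdnf and 5.35 for Neurod2, and apart at 5.29 for Dlk1, 5.69 for Ier5 and 5.29 for Npas4. METH array 5 stood low at 10.35 for Ppp1r1b, and apart at 6.73 for Ndufaf4, 6.44 for Psmc6 and 9.46 for Junb. The other 5 were METH array 1 for Msmo1 (9.70), METH array 3 for Fbxo33 (8.39), METH array 4 for Rpl30 (10.74), saline array 1 for Dnajb4 (7.60) and saline array 2 for Atf4 (8.67).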

How the results depend on the processing

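With all arrays and the slide block 56 probes were higher and 6 lower. The higher count was 95 with median scaling, which moved the median of all genes to 0.11 from -0.02, 113 with array weights, 15 in slide 2 alone, and 40 to 133 when an array was left out. The lower count was 3 without a slide block, 14 with a replicate block, 2 with the strict detection filter, 58 with array weights, 1 in slide 2 alone, 3 with the cortical covariate, 23 at an adjusted p of 0.10 (80 higher) and 2 to 31 when an array was left out. Of the 46 named genes, 30 passed without any 1 array, 40 without the slide block and 46 without background correction, and 0 changed direction. The 2 genes that changed sign without passing were Klf5 (-0.13 with all arrays, 0.044 with median scaling, 0.16 in slide 1 alone, and -0.27 to 0.10 when an array was left out) and Zfp503 (0.23 in slide 1 alone), and the cause was not tested. Deviations of same-numbered arrays from their group means had r of 0.072, 0.095, 0.08 and 0.247 over both slides. Within slides r was -0.127, -0.127, 0.376 and -0.107. Over both slides METH array 4 and saline array 4 were each other's closest match, which held for no other number. The numbers were not taken as pairs. With the replicate number as a block, in which METH array 5 has no saline partner and so adds nothing to the difference, 68 probes were higher and 14 lower, and 41 of the 46 genes passed.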

Other observations

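Rpl30, which encodes a ribosomal protein, had the widest spread of values among the genes with an array set apart. It measured 6.54, 6.60, 6.07, 10.74 and 5.10 on METH arrays 1 to 5, against 11.21, 11.23, 6.41 and 9.70 on saline arrays 1 to 4. Over all arrays it did not pass (log2 fold change -2.52 ± 1.11 SE, limma with Benjamini-Hochberg adjustment, adjusted p = 0.405). On slide 1 both METH arrays were low and both saline arrays high (log2 fold change -4.65, adjusted p = 5.11e-07 in slide 1 alone), on slide 2 the log2 fold change was -0.75 (adjusted p = 0.917), and with METH array 4 left out it passed.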
